A study of Mus musculus with 4 samples.

Results

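The heterogeneous nuclear ribonucleoprotein (HNRNP) and RNA-binding motif (RBM) genes described here were taken from a microarray study of RNA recovered by immunoprecipitation. They are the genes with a probe set mapped to exactly 1 symbol beginning with Hnrnp, or with Rbm and a digit. Each gene is represented by its brightest probe set by mean over the 4 arrays. The rule gave 51 genes, 16 HNRNP and 35 RBM, of 19938 genes with such a probe set. Of these 51, 49 are protein-coding, while RefSeq lists Rbm3os as a long noncoding RNA and Rbm8a2 as a pseudogene. The cells were early erythroid progenitors of C57BL/6 mouse fetal liver at embryonic day 14.5, depleted of mature, Sca-1, CD16/32, CD41 and CD34 positive cells and then sorted for c-Kit and low CD71. From the lysate of these cells, 2 samples were precipitated with an antibody specific for 1 RNA-binding protein (the RBP arrays) and 2 with control rabbit IgG (the IgG arrays). The labels do not name the protein, which is ZFP36L2 as far as the published study is known, and the specificity of the antibody was not checked here. Whether replicates came from separate cell preparations is not stated, so the p-values capture only how far these arrays differ, a spread that may be technical.

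HNRNP proteins coat nascent transcripts in the nucleus, where they steer splice site choice, polyadenylation and export, and many of them shuttle to the cytoplasm and affect mRNA stability and translation. RBM is a naming series for proteins with RNA recognition motifs, and its members range from spliceosome components to nucleolar, exon junction and cold-induced proteins. Several mRNAs of both kinds are known to be spliced under the control of their own products. In this experiment the quantity measured is the mRNA of each gene recovered by an antibody, and not the protein.

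The values are log2 probe set levels. The median of all probe sets was 5.57 and 5.62 on the RBP arrays, against 5.85 and 5.93 on the IgG arrays, and the interquartile range was 3.73 and 3.61, against 2.91 and 2.87. The 95th percentile of the mean level of 1231 chemosensory receptor genes, 5.37, is called the background level. All 10 early erythroid markers, among them Kit, Gata1 and Epor, lay above it, and 4 of them were called higher, of which 0 were called with the level trend removed. Their summed linear level was 14101 and 15739 on the RBP arrays, against 9958 and 11114 on the IgG arrays. Of the markers of other cells, 5 of 7 hepatocyte, 3 of 8 macrophage, 2 of 4 megakaryocyte, 5 of 6 granulocyte and mast cell, 5 of 5 lymphoid and 4 of 6 endothelial and stromal genes were above the background level. The summed levels were 676 and 421 on the RBP arrays against 649 and 426 on the IgG arrays for hepatocyte genes, and 771 and 486 on the RBP arrays against 628 and 561 on the IgG arrays for macrophage genes. They were 447 and 425 on the RBP arrays against 298 and 346 on the IgG arrays for megakaryocyte genes, and 4465 and 2312 on the RBP arrays against 5867 and 2688 on the IgG arrays for granulocyte and mast cell genes. They were 806 and 497 on the RBP arrays against 763 and 403 on the IgG arrays for lymphoid genes, and 540 and 437 on the RBP arrays against 478 and 453 on the IgG arrays for endothelial and stromal genes. Among these markers Gp9 (megakaryocyte) was called higher, at 0.82, and Cd68 (macrophage), Elane (granulocyte) and Cxcl12 (stromal) lower, at -1.59, -1.44 and -0.61, of which Cd68 and Elane were also lower with the level trend removed. The markers not above the background level were Afp, Ttr, Adgre1, C1qa, C1qc, Vcam1, Cd163, Pf4, Ppbp, Mcpt8, Kdr and Cxcl12. The part of other cells in the results was not tested. For the marker levels, fewer cells of a type and less RNA per cell cannot be told apart. The RBP minus IgG differences compare RNA recovered from lysate of these sorted cells, and do not measure cell numbers.

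The comparison asked which of these mRNAs the RBP antibody recovered beyond control IgG. Among the 51 genes, 19 were higher, 3 were lower and 29 did not pass limma at an adjusted p under 0.05 (Benjamini-Hochberg over all 19938 genes). The share called higher over all genes was 23.8%, and over the 12828 genes above the background level it was 36.5%. The share called lower was 6.54% in both. The 51 genes were called higher in 37.3% of cases, close to the share among genes above the background level, where 46 of the 51 lay. Their median difference, RBP minus IgG, was 0.46 on the log2 scale, beside 0.40 for all genes above the background level and -0.02 for all genes. Both RBP arrays were above both IgG arrays for 38 genes and below for 7, where all genes gave 37.4% and 36.2% and those above the background level 54.9% and 22.8%. With 2 arrays in each group the smallest p an exact permutation test allows, two-sided, is 0.333, so the calls depend on the variance that limma borrows from other genes. Quantile normalization ended 11 of the 19 higher calls, those of Hnrnph2, Hnrnpll, Hnrnpm, Rbm6, Rbm10, Rbm15, Rbm17, Rbm19, Rbm25, Rbm27 and Rbm28, and 1 of the 3 lower calls, that of Rbm24. The number of arrays limits the precision, and the median SE of a difference over the 51 genes was 0.18.

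All 16 HNRNP genes lay above the background level. The RBP arrays were higher for 8 of them and lower for 0, and 8 did not pass. These shares of 50% and 0% stood beside 36.5% and 6.54% of all genes above that level. At an unadjusted p under 0.05, limma gave 11 of the 16 higher and 1 lower. The 16 differences ran from -0.67 to 1.44. Hnrnpul2 stood at the upper end. It encodes a relative of the nuclear scaffold protein hnRNP U, known in human cells for its part in DNA double-strand break processing. Its levels were 11.16 and 10.80 on the RBP arrays, against 9.49 and 9.59 on the IgG arrays. The groups were more than 1 log2 unit apart, with a difference of 1.44 ± 0.18 (SE), or 2.71-fold (limma, adjusted p = 0.00596). It was 1 of 3 genes among the 51 that kept their call and direction under all 14 alternatives.

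Hnrnpr, a close relative of Syncrip, had levels of 9.39 and 9.17 on the RBP arrays, against 7.79 and 8.12 on the IgG arrays. Hnrnpa0, which encodes a protein that binds AU-rich elements, had 10.44 and 10.23 on the RBP arrays, against 9.07 and 9.09 on the IgG arrays. Both were clearly separated, by 1.32 ± 0.18 (limma, adjusted p = 0.0067) for Hnrnpr and by 1.26 ± 0.15 (limma, adjusted p = 0.00582) for Hnrnpa0. Both kept their calls without any single array. Hnrnph2 belongs to the F/H group, whose proteins bind G-rich tracts. Its levels were 8.99 and 9.32 on the RBP arrays, against 8.09 and 7.82 on the IgG arrays, a difference of 1.19 ± 0.19 (limma, adjusted p = 0.00887) that lost its call without RBP array 2 (limma, adjusted p = 0.0596).

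The other 4 called HNRNP genes rose by less. Hnrnpll, known for exon skipping in the CD45 transcript of lymphocytes, differed by 0.99, Hnrnpf, a G-tract binding relative of Hnrnph2, by 0.98, the splicing regulator Hnrnpm by 0.84 and Hnrnpab by 0.83 (limma, adjusted p from 0.00753 to 0.022). Hnrnpf had 11.99 and 12.07 on the RBP arrays, against 11.02 and 11.07 on the IgG arrays. Leaving out RBP array 1 ended the calls of all 4, at limma adjusted p of 0.0551 for Hnrnpll, 0.0575 for Hnrnpf, 0.18 for Hnrnpm and 0.1 for Hnrnpab. Leaving out RBP array 2 ended all of these but that of Hnrnpm, at limma adjusted p of 0.0983 for Hnrnpll, 0.0651 for Hnrnpf and 0.102 for Hnrnpab.

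**Figure D1:**
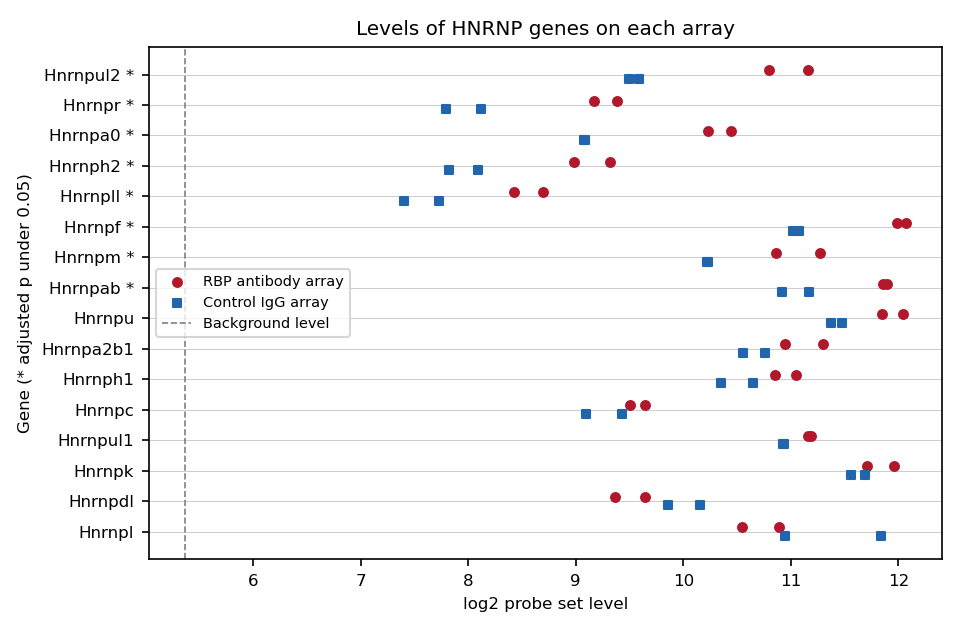
Log2 probe set levels (x axis) of the 16 HNRNP genes (y axis, ordered by difference) on the 2 RBP arrays (circles) and the 2 IgG arrays (squares), with the background level of 5.37 dashed and called genes starred. The RBP circles lie to the right of the IgG squares for 14 genes and to the left for Hnrnpdl and Hnrnpl. All genes above the background level gave 54.9% to the right and 22.8% to the left.

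Several well-known HNRNP genes were among those that did not pass, while Hnrnpa1 had no probe set of its own and was not tested. Hnrnpu, the nuclear scaffold protein, had 12.04 and 11.85 on the RBP arrays, against 11.37 and 11.47 on the IgG arrays, and missed the threshold with a difference of 0.52 ± 0.15 (limma, adjusted p = 0.0512). Hnrnpa2b1, which encodes the core particle proteins A2 and B1, had 11.30 and 10.95, against 10.55 and 10.76, a difference of 0.46 ± 0.18 (limma, adjusted p = 0.109). Hnrnph1, the paralog of Hnrnph2, had 11.05 and 10.85, against 10.35 and 10.65, a difference of 0.45 ± 0.18 (limma, adjusted p = 0.104). The arrays of the groups did not overlap for any of these genes. Without IgG array 2, Hnrnpu and Hnrnph1 passed (limma, adjusted p = 0.0449 and 0.0403).

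Hnrnpc, whose protein binds uridine tracts, had 9.51 and 9.64 on the RBP arrays, against 9.43 and 9.09 on the IgG arrays, a difference of 0.32 ± 0.18 (limma, adjusted p = 0.214). Hnrnpul1 differed by 0.24 (limma, adjusted p = 0.233). Hnrnpk, which encodes a poly-C binding protein, had 11.71 and 11.96, against 11.56 and 11.69, a difference of 0.21 ± 0.16 (limma, adjusted p = 0.351). For Hnrnpc and Hnrnpk the gap between groups was smaller than the distance between arrays of 1 group.

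Hnrnpdl and Hnrnpl were the only HNRNP genes with both RBP arrays below both IgG arrays. Among the 13 HNRNP genes with a mean level above 9, the RBP arrays were above for 11 and below for these 2. All 2555 genes above that level gave 1886 above and 261 below. Hnrnpdl encodes a protein of the A/B type that binds AU-rich RNA. Its levels were 9.36 and 9.65 on the RBP arrays, against 9.86 and 10.15 on the IgG arrays, a difference of -0.50 ± 0.19 (limma, adjusted p = 0.0913). Hnrnpl, whose protein binds CA repeats, had 10.89 and 10.55 on the RBP arrays, against 11.84 and 10.95 on the IgG arrays, a difference of -0.67 ± 0.32 (limma, adjusted p = 0.154). Neither passed. The IgG arrays of Hnrnpl lay further apart than the group means, and without IgG array 2 the gene was called lower (limma, adjusted p = 0.0167).

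Of the 35 RBM genes, 11 were higher, 3 were lower and 21 did not pass, with a median difference of 0.43 and a range of -1.76 to 1.45. Rbm8a2, Rbm11, Rbm20, Rbm44 and Rbm46 were not above the background level, and 0 of these 5 were called by limma, with 0 higher and 1 lower at an unadjusted p under 0.05. Of the 5, Rbm46 was called lower without IgG array 1 (limma, adjusted p = 0.0481) and with the trend and robust options of eBayes. Among the other 30, the counts were 11 higher and 3 lower, 36.7% and 10%, beside 36.5% and 6.54% of all genes above the background level.

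The splicing-related RBM genes numbered 13, of which 5 were higher, 1 was lower and 7 did not pass. These shares of 38.5% and 7.69% were close to the 36.5% and 6.54% of all genes above the background level, where 11 of the 13 lay. Rbm41, a relative of a protein of the minor spliceosome, had 7.24 and 7.19 on the RBP arrays, against 6.04 and 5.93 on the IgG arrays. Replicates lay close together beside the difference, which was 1.22 ± 0.14 (limma, adjusted p = 0.00568). Rbm41 also kept its call and direction under all 14 alternatives. Rbm17, which encodes the splicing factor SPF45, had 9.62 and 9.11, against 8.38 and 8.33, a difference of 1.01 ± 0.21 (limma, adjusted p = 0.0177). Rbm25, which encodes a protein associated with the U1 particle, had 10.61 and 10.42, against 9.73 and 9.91, a difference of 0.70 ± 0.16 (limma, adjusted p = 0.0256). Rbm10 and Rbm6, related regulators of exon skipping, differed by 1.0 and 0.90 (limma, adjusted p = 0.00776 and 0.0151).

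Without RBP array 1 the calls of Rbm17, Rbm25, Rbm10 and Rbm6 were lost (limma, adjusted p = 0.122, 0.217, 0.0615 and 0.133), and without RBP array 2 those of Rbm25 and Rbm10 (limma, adjusted p = 0.105 and 0.0608). Rbm5, which neighbours Rbm6 in the genome and encodes a related protein, had 9.47 and 9.22, against 8.63 and 8.89, and did not pass at 0.58 (limma, adjusted p = 0.0534), although without IgG array 2 it did (limma, adjusted p = 0.0323). Rbm39, which encodes a cofactor related to the splicing factor U2AF, had 10.14 and 10.41 on the RBP arrays, against 10.00 and 10.48 on the IgG arrays. Its groups overlapped, with a difference of 0.04 ± 0.21 (limma, adjusted p = 0.898). Rbm22, a protein of the catalytic spliceosome, gave 0.16 (limma, adjusted p = 0.439).

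Rbm4b ran the other way. It encodes a splicing and translation regulator of the Lark family. Its levels were 7.22 and 7.16 on the RBP arrays, against 7.87 and 8.0 on the IgG arrays, and the groups were well separated. The difference was -0.75 ± 0.15 (limma, adjusted p = 0.0156). The call was lost without RBP array 1 (limma, adjusted p = 0.116) or RBP array 2 (limma, adjusted p = 0.129) and after centring on the chemosensory genes (limma, adjusted p = 0.0786), with the sign kept in all 14 alternatives. Its paralog Rbm4 was not analysed here.

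Of 7 RBM genes of nuclear RNA surveillance, export, the exon junction and RNA methylation, 2 were higher (28.6%) and 5 did not pass. All genes gave 56.4% higher at levels of 8 to 9 and 57.8% at 9 to 10, where these 7 lay. All 7 differences were positive, as were those of 8581 of the 12828 genes above the background level. Rbm27, known for a part in the decay of nuclear polyadenylated RNA, differed by 0.89 (limma, adjusted p = 0.0116). Rbm15 encodes a protein that brings the m6A methyltransferase to its targets and is fused in a megakaryoblastic leukaemia of infants. Its levels were 10.19 and 10.17 on the RBP arrays, against 9.24 and 9.59 on the IgG arrays, a difference of 0.76 ± 0.17 (limma, adjusted p = 0.0243). The RBP arrays were close together and above both IgG arrays. Both calls were lost without RBP array 1 (limma, adjusted p = 0.0808 for Rbm27 and 0.148 for Rbm15) and without RBP array 2 (limma, adjusted p = 0.0901 and 0.131).

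Rbm15b, the paralog of Rbm15, had the highest RBM difference and did not pass. Its levels were 9.73 and 8.48 on the RBP arrays, against 8.22 and 7.09 on the IgG arrays. The arrays of each group lay more than 1 log2 unit apart, with array 1 the higher in both. Between same-numbered arrays the differences were 1.52 and 1.39. The difference was 1.45 ± 0.51 (limma, adjusted p = 0.0818) on this brightest probe set, and -0.08 on the other. With the replicate number fitted as a block the gene was called higher (limma, adjusted p = 3e-05). It passed without IgG array 1 (limma, adjusted p = 0.0455) and without RBP array 2 (limma, adjusted p = 0.0382). Rbm8a, the exon junction core protein Y14, had 9.73 and 9.60, against 9.47 and 8.80, a difference of 0.53 ± 0.24 (limma, adjusted p = 0.148), and passed without IgG array 1 (limma, adjusted p = 0.0159). Rbm26, Rbm33 and Rbm7 gave 0.55, 0.46 and 0.38 (limma, adjusted p from 0.117 to 0.298). Of these 3, Rbm26 and Rbm33 passed without IgG array 2 (limma, adjusted p = 0.0329 and 0.0229).

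All 3 nucleolar RBM genes were called higher, beside 47.1% of all genes at levels of 7 to 8 and 56.4% at 8 to 9, where these 3 lay. Rbm19, which acts in ribosomal RNA processing, had 9.29 and 9.22 on the RBP arrays, against 7.92 and 8.18 on the IgG arrays, a difference of 1.21 ± 0.16 (limma, adjusted p = 0.00648). Rbm34 had 7.49 and 7.62, against 6.28 and 6.71, a difference of 1.06 ± 0.19 (limma, adjusted p = 0.0126). Rbm28, whose yeast counterpart Nop4 is needed for large ribosomal subunit formation, differed by 0.79 (limma, adjusted p = 0.0172). Both RBP arrays were above both IgG arrays for each of them, as for 54.9% of all genes above the background level. With the level trend removed 0 of the 3 were called, with Rbm19 at 0.42, Rbm34 at 0.61 and Rbm28 at 0.05. Rbm19 kept its call without any single array, while Rbm34 and Rbm28 lost theirs without RBP array 1 (limma, adjusted p = 0.0615 and 0.0848) and without RBP array 2 (limma, adjusted p = 0.0777 and 0.145). With quantile normalization Rbm19 gave 0.67 (limma, adjusted p = 0.0538) and Rbm28 0.31 (limma, adjusted p = 0.268), and neither passed.

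**Figure D2:**
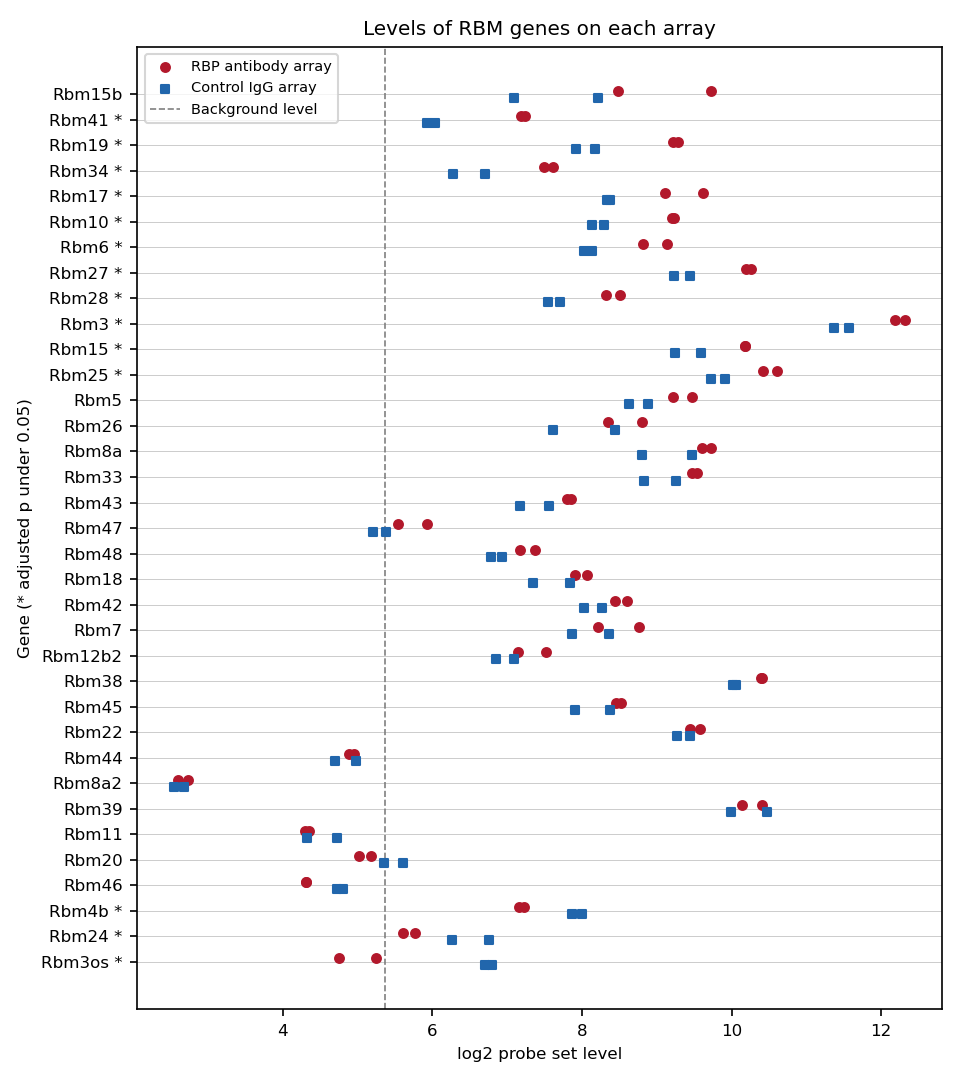
Log2 probe set levels (x axis) of the 35 RBM genes (y axis, ordered by difference) on the 2 RBP arrays (circles) and the 2 IgG arrays (squares), with the background level of 5.37 dashed and called genes starred. RBP circles lie to the right for 24 genes and to the left for 5, and the arrays of the groups overlap for 6. All genes gave 37.4% to the right and 36.2% to the left, and those above the background level 54.9% and 22.8%.

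Of 6 cold-induced, mRNA stability and tissue regulators, 1 was higher, 1 was lower and 4 did not pass. All genes gave 23.8% higher and 6.54% lower, and those above the background level, where 4 of the 6 lay, 36.5% and 6.54%. Rbm3, the cold-inducible RNA-binding protein, had 12.19 and 12.32 on the RBP arrays, against 11.37 and 11.57 on the IgG arrays, a difference of 0.78 ± 0.16 (limma, adjusted p = 0.0169). Rbm38, known for splicing changes late in erythroid maturation, had 10.39 and 10.41, against 10.06 and 10.02. Its replicates were tight and its groups did not overlap, but the difference of 0.36 ± 0.14 did not pass (limma, adjusted p = 0.103). Rbm24, a muscle splicing regulator, had 5.61 and 5.77 on the RBP arrays, against 6.75 and 6.26 on the IgG arrays, a difference of -0.82 ± 0.21 (limma, adjusted p = 0.0328). Leaving out RBP array 1 ended the calls of Rbm3 and Rbm24 (limma, adjusted p = 0.0958 and 0.186), as did leaving out RBP array 2 (limma, adjusted p = 0.136 and 0.109).

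The lowest difference belonged to Rbm3os, the noncoding RNA of the opposite strand at the Rbm3 locus. Its levels were 4.75 and 5.24 on the RBP arrays, against 6.70 and 6.80 on the IgG arrays. The RBP levels were below the background level, so the size is uncertain. The difference was -1.76 ± 0.20, or 3.38-fold lower (limma, adjusted p = 0.00568), and the call and direction were kept under all 14 alternatives. Rbm3 and Rbm3os thus had opposite signs although their genes overlap in RefSeq's GRCm38.p6 annotation. Whether the probe sets read a single strand is not given in the sources used here, so signal from overlapping RNA cannot be told apart. The other RBM genes of no further group, Rbm43, Rbm18, Rbm12b2, Rbm45 and Rbm8a2, gave 0.05 to 0.45 and did not pass. Without IgG array 1, Rbm43, Rbm18 and Rbm45 passed as higher (limma, adjusted p = 0.0269, 0.035 and 0.0351).

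The 250 bases before the annotated start are shown for Rbm41 and Rbm3os, the higher and the lower RBM gene whose calls were kept under all alternatives, because the Rbm3os window lies within the Rbm3 gene. RefSeq's GRCm38.p6 windows are Rbm41 at chrX:139998596-139998845 on the minus strand and Rbm3os at chrX:8145177-8145426 on the plus strand. Capitals mark matches on either strand to the E-box CACGTG, to the NF-Y motif CCAAT, to the Sp1 motif GGGCGG or to the TATA motif TATAAA, a set chosen after the sequences had been seen.
Rbm41: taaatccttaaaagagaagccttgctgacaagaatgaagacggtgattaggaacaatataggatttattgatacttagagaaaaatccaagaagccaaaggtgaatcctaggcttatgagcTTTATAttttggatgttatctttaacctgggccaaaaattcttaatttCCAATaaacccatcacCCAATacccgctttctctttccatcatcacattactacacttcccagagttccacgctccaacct
Rbm3os: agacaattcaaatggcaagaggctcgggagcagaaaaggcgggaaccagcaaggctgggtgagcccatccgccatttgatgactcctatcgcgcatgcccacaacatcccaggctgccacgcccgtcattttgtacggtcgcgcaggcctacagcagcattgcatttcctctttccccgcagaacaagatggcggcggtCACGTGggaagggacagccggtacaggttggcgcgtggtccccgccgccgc
The Rbm41 window held 3 matches, to CCAAT and TATAAA, with a GC content of 37.6%. The Rbm3os window held 1 match, to CACGTG, with a GC content of 61.2%, and no matches overlapped each other. Windows were found for 41 of the 51 genes. CACGTG was present for 14.6% of those 41 (6 genes), beside 6.86% of the 27025 genes with a window. The shares were 53.7% beside 37.5% for CCAAT, 48.8% beside 35.4% for GGGCGG, and 9.76% beside 14.3% for TATAAA. The median GC content was 60.0% over the windows of the HNRNP and RBM genes, beside 52.4% over all windows. The part of base composition in the motif shares was not tested. These matches describe letters in the windows and say nothing of antibody recovery.

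The classes were compared by counts and medians, since member genes are not replicates. HNRNP genes were called higher in 50% of cases (8 of 16) and RBM genes in 31.4% (11 of 35). All genes gave 23.8%, and those above the background level 36.5%. Among the 30 RBM genes above that level, where all 16 HNRNP genes lay, the share was 36.7% and the median difference 0.50. The median differences of the full classes were 0.68 for HNRNP and 0.43 for RBM. The class median of the levels was 11.10 and 10.82 on the RBP arrays and 10.29 and 10.44 on the IgG arrays for HNRNP, and 8.35 and 8.52 on the RBP arrays and 7.92 and 7.91 on the IgG arrays for RBM. The class median level of HNRNP minus that of RBM varied between replicate arrays with an SD of 0.23. That spread is of median levels, so it does not measure the spread of the gap between the median differences. This gap was 0.25. It was 0.10 without IgG array 1 and 0.10 without RBP array 1, but 0.38 without IgG array 2. It was 0.38 with quantile normalization, 0.31 with the level trend removed and 0.43 with a local quadratic trend removed, positive in each case.

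**Figure D3:**
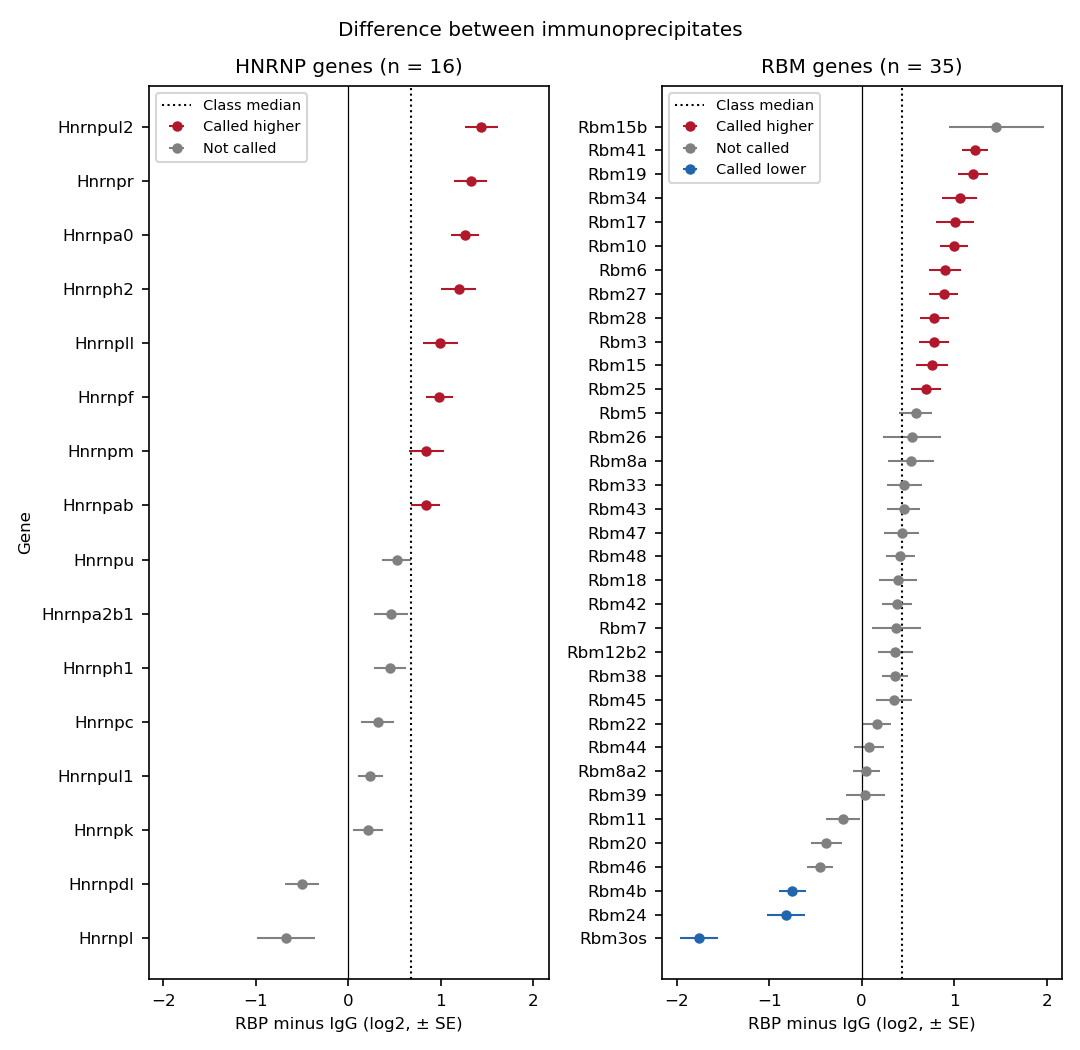
Difference between RBP and IgG arrays on the log2 scale (x axis, with SE bars from limma) for each of 16 HNRNP genes (left) and 35 RBM genes (right), coloured by call, with the class median dotted. The HNRNP median is 0.68 and the RBM median 0.43, and the called lower genes are Rbm4b, Rbm24 and Rbm3os.

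The difference varied with the level over all genes. HNRNP probe sets had a median mean level of 10.68 and RBM probe sets one of 8.30, where the medians of the trend over all genes were 0.59 and 0.66. Among genes with a mean level above 9, HNRNP genes were higher in 38.5% of cases (5 of 13, median difference 0.46) and RBM genes in 40% (4 of 10, median difference 0.56), beside 54.1% of all 2555 such genes (median difference 0.68). In this range the HNRNP median was below the RBM median, but with the level trend removed they were -0.10 for HNRNP and -0.20 for RBM. Of the 13 genes at levels between 8 and 9, 8 were called higher, with a median difference of 0.99, beside 56.4% and 0.78 for all 2329 genes there. Of the 9 genes between 9 and 10, 3 were called higher, beside 57.8%.

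With the loess trend of the difference on level removed, 2 of the 51 genes were called higher and 3 lower, where all genes gave 5.01% and 5.34%. Those higher were Hnrnpul2 (0.79, limma adjusted p = 0.0489) and Rbm41 (1.0, limma adjusted p = 0.0203). Those lower were Rbm3os (-1.61, limma adjusted p = 0.0188), Rbm4b (-1.40, limma adjusted p = 0.0161) and Hnrnpdl (-1.21, limma adjusted p = 0.0218). The median of the 51 genes was then -0.05, with 0.16 for HNRNP and -0.15 for RBM. A local quadratic trend, tried after the data had been seen, added Hnrnpf as higher (0.76, limma adjusted p = 0.0329).

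**Figure D4:**
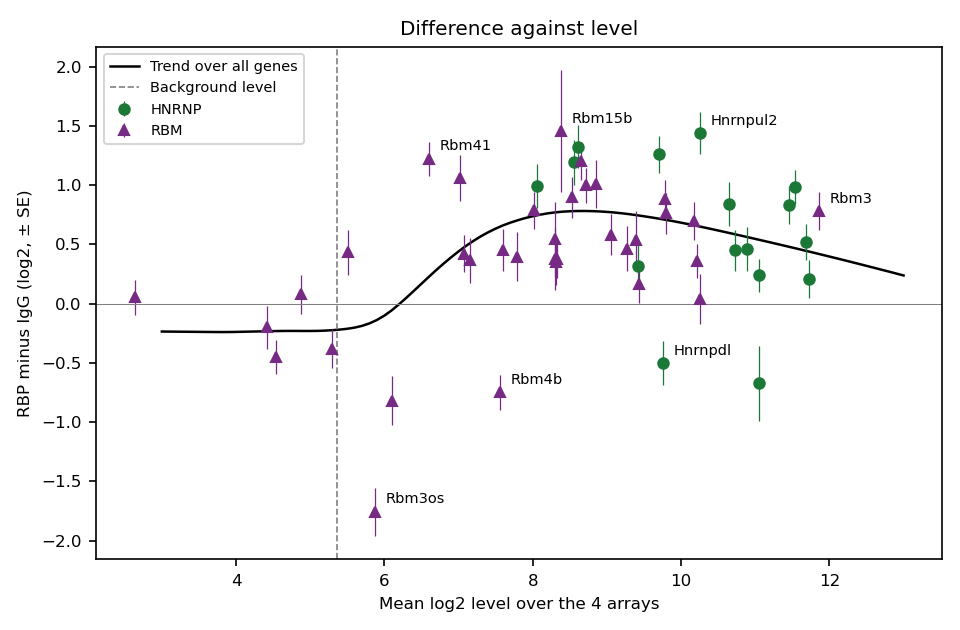
Difference between RBP and IgG arrays (y axis, log2, with SE bars) against the mean log2 level over the 4 arrays (x axis) for HNRNP genes (circles) and RBM genes (triangles), with the loess trend over all 19938 genes as a line and the background level of 5.37 dashed. Hnrnpul2 and Rbm41 lie above the line, and Hnrnpdl, Rbm4b and Rbm3os below it.

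Of the 51 genes, 8 had several single-symbol probe sets. The 4 of Hnrnpf differed by 0.73 to 0.98, the 2 of Hnrnph2 by 1.19 and 1.24, the 3 of Rbm3 by 0.78 to 0.85, the 4 of Rbm25 by 0.34 to 0.76 and the 3 of Hnrnpk by 0.19 to 0.21. Those of a further 3 genes disagreed in sign. Rbm6 gave 0.90 on the brightest probe set and -0.27 on the other, whose levels were 7.59 and 7.16 on the RBP arrays, against 7.64 and 7.66 on the IgG arrays. Rbm15b gave 1.45 and -0.08, and Rbm33 gave 0.46, 0.46 and -0.70. In a fit over all probe sets, Rbm6 was called on the brightest probe set (limma, adjusted p = 0.044) and not on the other (limma, adjusted p = 0.363), and with the mean over its probe sets the gene lost its call. Rbm25 lost its call with the mean over its probe sets (limma, adjusted p = 0.0632) and in the fit over all probe sets, where 0 of its 4 were called and the brightest had an adjusted p of 0.0588 in limma. Which transcripts or processed copies each probe set reads was not checked. A further 20 probe sets carry several symbols, at least 1 of them of these families, and stay unnamed. Both RBP arrays were above both IgG arrays for 17 of them, where all probe sets gave 28.3%, all those with several symbols 14.8% and all those with a mean level above 9 60.6%. Of the 20, 16 had a mean level above 9, 1 repeats the values of another, and several others have similar levels on all 4 arrays.

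**Figure D5:**
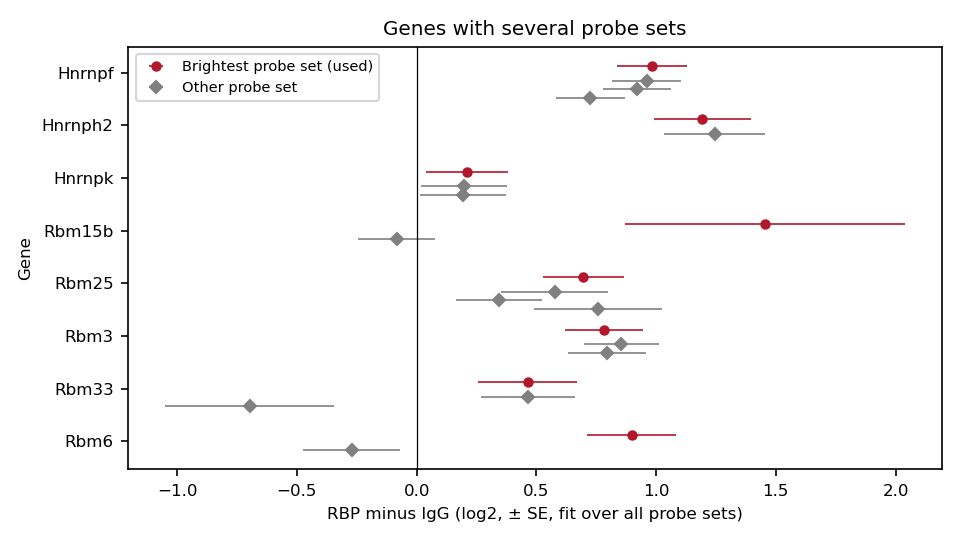
Difference between RBP and IgG arrays (x axis, log2, with SE bars from a fit over all probe sets) for each probe set of the 8 genes with several (y axis), the brightest as circles and others as diamonds. Probe sets of Rbm6, Rbm15b and Rbm33 lie on both sides of 0, while those of Hnrnpf, Hnrnph2, Hnrnpk, Rbm25 and Rbm3 lie on the positive side.

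RNA-binding genes outside the symbol rule are given for comparison, without a test against the 51 genes. Of 33 relatives with a probe set, such as the PTB, PCBP, CELF and MBNL families, 7 were higher, 1 was lower and 25 did not pass, with a median difference of 0.15. All 33 lay above the background level, and 21.2% of them were called higher, beside 36.5% of all genes there. With the level trend removed 0 were higher and 6 lower, beside 5.01% and 5.34% of all genes, with a median of -0.32. The local quadratic trend gave 1 higher and 5 lower, beside 5.63% and 5.09% of all genes, with a median of -0.14. The higher one was Syncrip (0.64, limma adjusted p = 0.0476). Syncrip, the relative of Hnrnpr, had 11.30 and 11.30 on the RBP arrays, against 10.18 and 10.29 on the IgG arrays, a difference of 1.06 ± 0.14 (limma, adjusted p = 0.00661). Tardbp differed by 0.99 (limma, adjusted p = 0.00993) and Khdrbs1, known as Sam68, by 0.99 (limma, adjusted p = 0.00711). Pcbp2 was the lower one, at -0.60 (limma, adjusted p = 0.0269). Of 14 SR proteins and partners, which bind exonic enhancers and often oppose HNRNP proteins, 2 were higher and 1 was lower, with a median difference of 0.27. All 14 lay above the background level, and 14.3% were called higher, beside 36.5% of all genes there. With the level trend removed 0 were higher and 1 lower, with a median of -0.25. The local quadratic trend gave 0 higher and 0 lower, with a median of -0.06. Srsf4 differed by 1.01 (limma, adjusted p = 0.0112), Srsf1 by 0.57 (limma, adjusted p = 0.0296) and Srsf12, whose RBP levels were below the background level, by -0.66 (limma, adjusted p = 0.0227).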

How the data were processed

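RNA from 4 immunoprecipitates, 2 with the RBP antibody and 2 with control IgG, was hybridised to Affymetrix whole-transcript gene arrays, per the labels. The deposited values are log2 probe set levels, made by the authors with RMA and affy, per the submitters' processing notes; their versions and any filters were not given in the sources used here. That the scale is log2 follows from the range of values, 1.83 to 13.87. Of 35556 probe sets, 21789 had 1 symbol in the platform annotation, 1621 several and 12146 none there. Entrez identifiers were found in RefSeq's table for 21698 probe sets and changed 0 symbols. The choice rule left out 1 further family gene.

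Differences were tested with limma 3.58.1 in R 4.3.3 (lmFit and eBayes, RBP minus IgG, two-sided, Benjamini-Hochberg over 19938 genes, threshold 0.05, prior degrees of freedom 3.76, residual 2), after trials on simulated data. No filter on level was set. Genes given in full were the 4 called genes with the largest positive difference, the 3 with the most negative difference and the 2 with the highest level in each class, and a fixed set of 12, of which 1 had no probe set of its own. From each further list, up to 3 called genes with the largest absolute difference were named, and Pcbp2 was added after its value was seen. Rbm5, Rbm22, Rbm15b and other genes were named for their role groups. The genes, lists, marker sets and alternatives were chosen with earlier results of these data known. The alternatives were quantile normalization, centring on chemosensory genes, removal of the loess trend on level (span 0.3), a filter at the background level, the mean over probe sets, a fit over all probe sets, a replicate block, eBayes with trend and robust options, a threshold of 0.1 and leaving out each array. A local quadratic trend was added after the data had been seen.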

Additional observations from a re-analysis of the deposited data

Results flagged for a closer look

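Signal was also present in 20 probe sets that carry several gene symbols, at least 1 of them of the HNRNP or RBM kind, which enter no comparison above and whose genes cannot be named. Both RBP arrays were above both IgG arrays for 17 of the 20 and below for 1, where all probe sets gave 28.3% above and all 1621 probe sets with several symbols 14.8%. Of the 20, 16 had a mean level above 9, and 15 of these had both RBP arrays above, where all probe sets above that level gave 60.6% and a median difference of 0.50. The values of 1 probe set repeat those of another, which leaves 16 of 19 distinct ones. The part of level was not tested further. The median difference of the 20 was 0.77, with a range of -0.54 to 0.87. In limma's fit over all probe sets 0 passed an adjusted p of 0.05 (lowest 0.052), and 17 were higher at an unadjusted p under 0.05.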

How the results depend on the processing

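As reported, 19 genes were higher and 3 lower, beside 23.8% and 6.54% of all genes, with class medians of 0.68 and 0.43. Quantile normalization gave 8 higher (5 HNRNP, 3 RBM), beside 11.1% of all genes. The RBM median was then 0.16, while all genes moved to a median of 0.16. Centring on the chemosensory genes gave 36 higher (13 and 23) and 1 lower, beside 35.6% and 1.59% of all genes. The class medians were then 0.99 and 0.75, with all genes at 0.29. Removing the level trend gave 2 higher (1 and 1), beside 5.01% of all genes, and medians of 0.16 and -0.15. The local quadratic form gave 3 higher (2 and 1), beside 5.63% of all genes, and medians of 0.32 and -0.11. A threshold of 0.1 gave 5 lower, beside 13.4% of all genes. Leaving out each array in turn gave 6 to 24 higher, 1 to 4 lower, 4 to 10 HNRNP higher, 2 to 16 RBM higher and RBM medians of 0.34 to 0.50; the lowest counts were without an RBP array, where the remaining one is assumed to vary like the IgG pair and all genes gave 8.65% and 10.3% higher. With the replicate number as a block 24 were higher and 5 lower, beside 29.5% and 11% of all genes. The number is not known to mark a shared preparation. Deviations of same-numbered arrays correlated across genes at 0.26. Summed granulocyte and mast cell levels fell from array 1 to array 2 on RBP (4465 and 2312) and IgG arrays (5867 and 2688). Hepatocyte, macrophage, lymphoid and endothelial and stromal sums fell likewise. Erythroid sums rose in both groups, and megakaryocyte sums differed in direction. The main fit, without a block, counts such shared shifts as spread. In the block fit, with 1 residual and 14.3 prior degrees of freedom, Rbm15b was called higher (limma, adjusted p = 3e-05). The filter, mean over probe sets, all-probe-set fit and eBayes options kept the counts within 1.5 times. Of 336 values for 24 genes given in full, 253 kept sign and side of the threshold, 47 lost the call, 21 gained one and 15 changed sign, all of genes that had not passed. With the level trend removed, the differences turned to -0.10 (Hnrnpa2b1), -0.43 (Hnrnpc), -0.14 (Hnrnph1), -0.23 (Hnrnpk), -0.29 (Rbm38), -0.61 (Rbm39) and -0.21 (Rbm8a), and with the quadratic form to -0.34 (Hnrnpc), -0.17 (Rbm38), -0.49 (Rbm39) and -0.13 (Rbm8a). Quantile normalization turned Hnrnpc (-0.18) and Rbm39 (-0.29), and leaving out arrays gave -0.20 to 0.28 for Rbm39. The causes were not tested. Probe sets at or below the background level limit the sizes for Rbm3os and 5 further RBM genes.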
